A study of Mus musculus with 4 samples.

Results

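FoxO signalling genes were described at the sites where MyoD, the bHLH transcription factor of the muscle lineage, was found by ChIP-seq in mouse myotubes. The 45 genes were all those with a row in either deposited peak list whose KEGG text names the FoxO signalling pathway (ko04068) and not the Jak-STAT pathway (ko04630). Cdkn1a and symbols starting with Igf, Fbx or Slc were also left out. In all, 7235 genes are named in the lists, 63 of them with the FoxO pathway in their text. The cells were primary myoblasts taken from C57BL/6 mice at 2 weeks of age. They were turned into myotubes over 5 days in 2% horse serum, and the myotubes were then held for 24 hours with pyruvate or without it. There were 4 samples: a MyoD ChIP and an input with pyruvate, and a MyoD ChIP and an input without pyruvate. The labels name no transgene or gene deletion, and do not say whether cells of several animals were pooled.

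The list with pyruvate held 11907 peaks and the list without pyruvate 19338, from 1 library each. Without replicates no difference could be tested. Depth is unknown, and an absent peak may be one that was not detected. The lists differ in length, and the part of this in any difference below was not tested. The assignment of a list to a condition rests on the sample titles alone, since a file name abbreviation can be read the other way. The columns for fold enrichment hold 0 in all rows with a number, which leaves position and width (end minus start) as the measures of a peak. Of 8 muscle genes used to check the cell type, 8 had a peak with pyruvate and 6 without, Ckm and Myh3 having none there. Of 6 genes of other lineages, 0 had one with pyruvate and 1, Ins2, without. The region listed for Ins2 is 20855 bases long against 1071 in RefSeq, so that peak may not lie at the RefSeq gene. Binding does not measure expression, so these counts do not show purity.

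FoxO proteins are forkhead transcription factors that turn on genes for atrophy, autophagy, stress resistance and cell-cycle arrest. Insulin and growth factor signals through PI3K, Akt and SGK phosphorylate FoxO proteins and keep them out of the nucleus, whereas AMPK and stress kinases modify them in other ways. In skeletal muscle the pathway is known for its part in fasting, disuse wasting and fibre metabolism. KEGG counts the inputs, the enzymes that modify FoxO and many targets as one pathway, so the 45 genes have unlike roles.

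Most of the genes were occupied in both conditions, and mostly inside the gene body rather than at the start site. A peak in the gene or within its 2-kb flanks was present in both lists for 30 of the 45 genes, or 66.7% (95% exact binomial interval 51.0 to 80.0), against 55.1% of all genes named. It was present only with pyruvate for 2 genes, Bcl2l11 and Map2k2, or 4.44% (0.543 to 15.1), against 9.95% of all genes. It was present only without pyruvate for 13 genes, or 28.9% (16.4 to 44.3), against 35% of all genes. Among them were Cat, Ccnb2, Chuk, Foxo3, Gadd45a, Ins2, Irs2, Mapk9, Plk3, Sgk1, Sgk2 and Tgfbr2. Each interval includes the share of all genes. Intervals cover counting error only, and every gene named has a peak in at least 1 list by construction. Leaving the list without pyruvate only its widest peaks, as many as the list with pyruvate holds, turned the order of the genes in 1 list. These were then 7 only with pyruvate and 4 only without, with 25 in both instead of 30. The direction of this change was fixed in advance, since only 1 list was cut and shared peaks were dropped too.

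**Figure D1:**
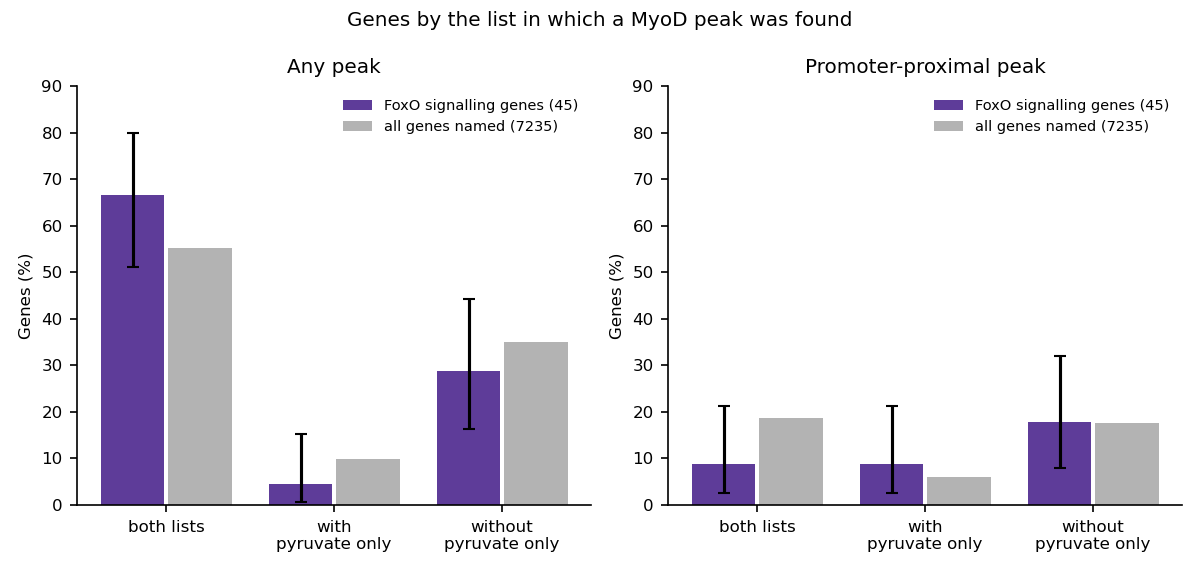
Bars give the percentage of the 45 FoxO signalling genes (purple, with 95% exact binomial intervals for counting error) and of all 7235 genes named (grey) by the list in which a MyoD peak was found. Left, any peak in the gene or its flanks; right, promoter-proximal peaks (located start ± 2 kb, or a flank whose side is not known). Each interval includes the grey bar beside it.

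The genes held 58 peaks with pyruvate in 32 genes and 80 without pyruvate in 43 genes. Of these, 50 with pyruvate and 68 without touched no other gene. Median width was 240 bases (interquartile range 199 to 292, range 169 to 786) with pyruvate and 232 bases (186 to 290, range 144 to 592) without, against 249 bases with pyruvate and 239 without over all peaks in gene regions. Of the 58 peaks with pyruvate, 40 overlapped a peak of the other list by at least 1 base, or 69.0% (55.5 to 80.5), against 71.5% of all peaks in gene regions. Of the 80 without pyruvate, 41 did, or 51.2% (39.8 to 62.6), against 46.9%. Overlapping peaks had a median width of 276.5 bases with pyruvate and 279 without, and the others 197.5 bases with pyruvate and 200 without. The shares and the widths were close to those of all genes, also in that peaks seen in 1 list were narrower. Over all peaks in gene regions the medians were 264 bases with pyruvate and 284 without for overlapping peaks, and 217 bases with pyruvate and 211 without for the others.

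At least 1 overlapping pair was found in 26 of the 45 genes, or 57.8% (42.2 to 72.3), against 52.2% of all genes named. The remaining 4 of the 30 genes with peaks in both lists, Foxo1, Pdpk1, Tgfb2 and Tnfsf10, were occupied at different places. Their nearest peaks of the 2 lists lay 32796, 10303, 36457 and 16210 bases apart. Such genes made up 13.3% of the 30 (3.76 to 30.7) and 5.32% of the 3984 genes with peaks in both lists, a value inside that interval.

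**Figure D2:**
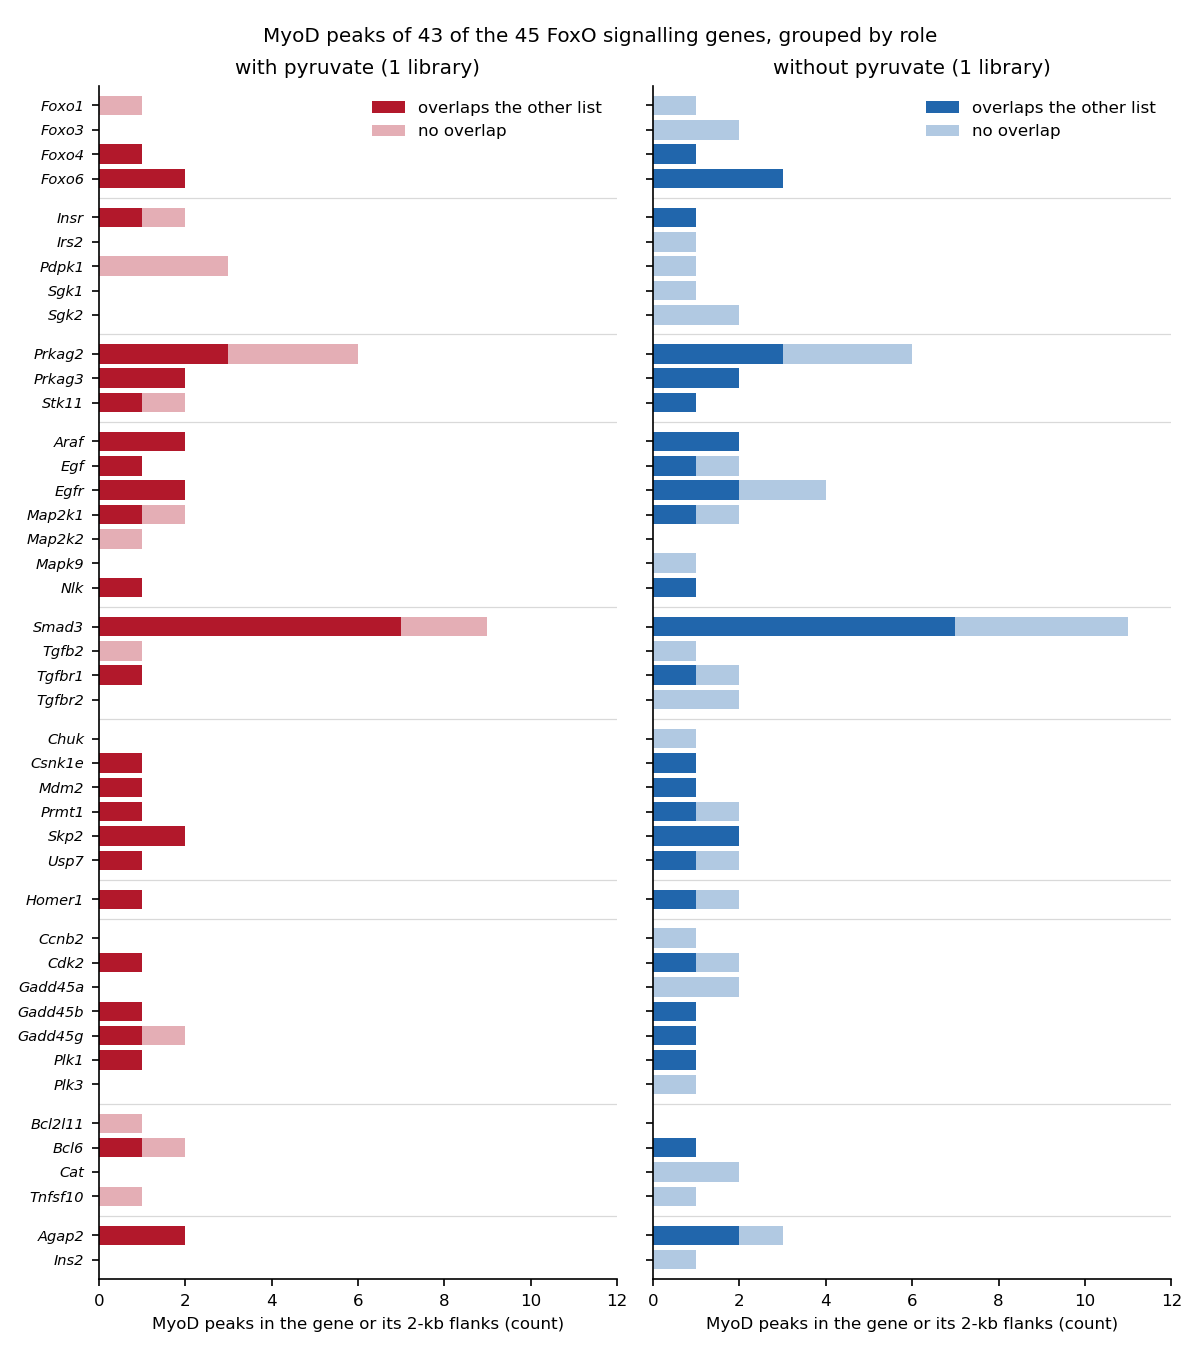
Bars count the MyoD peaks in 43 of the 45 genes or their 2-kb flanks, with pyruvate (left) and without pyruvate (right), 1 library each. Dark parts are peaks that overlap the other list and pale parts those that do not; grey lines separate the role groups from FoxO factors at the top. Smad3 has the most, 9 with pyruvate and 11 without.

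Widths were set side by side for the 39 sites that paired 1 to 1. With pyruvate the peak was the wider at 22 of them, or 56.4% (39.6 to 72.2), and without pyruvate at 17. Over all 5261 such pairs in gene regions it was wider with pyruvate at 39.7%, a value at the lower edge of that interval. The median difference, with minus without, was 13 bases (interquartile range -50 to 44) at the 39 sites and -18 bases (-68 to 31) at all pairs. Of the 39 sites 7 are in Smad3, so they are not independent of each other. Peak centres lay a median of 21.5 bases apart.

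**Figure D3:**
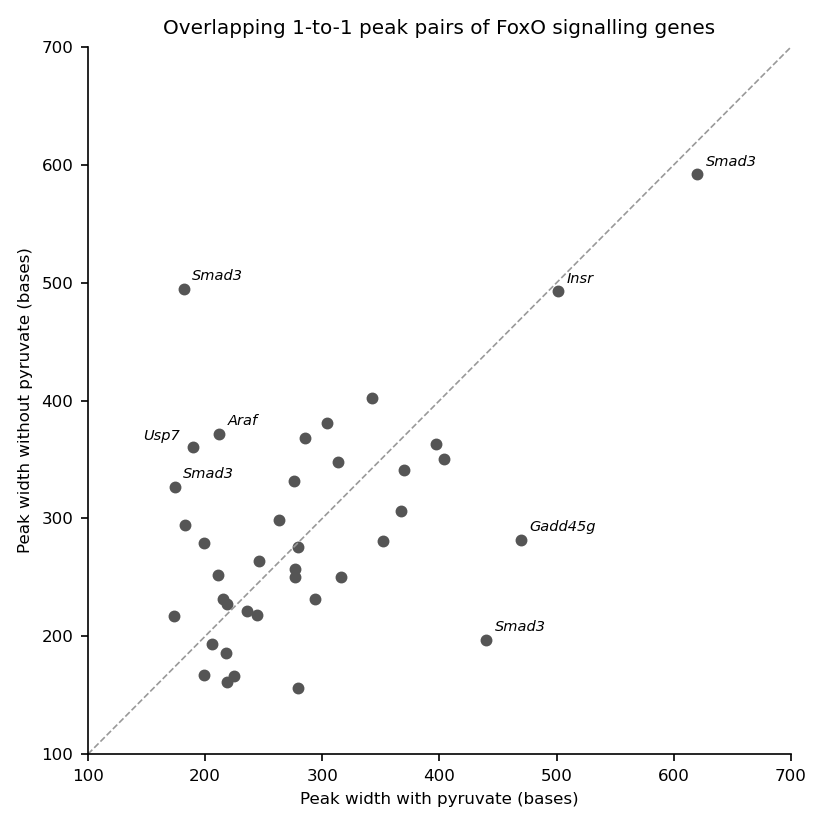
Each point is 1 of 39 overlapping peak pairs of FoxO signalling genes, with its width in bases with pyruvate (x) and without pyruvate (y); the dashed line marks equal width. The Insr pair and the widest Smad3 pair lie near the line, and 3 other Smad3 pairs lie far from it on either side.

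Positions were read against start sites, which the files located for 43 of the 45 genes, Bcl2l11 and Ccnb2 being the exceptions. Peaks lay in the body more than 2 kb from the start in 47 of 58 cases with pyruvate, or 81.0% (68.6 to 90.1), and in 61 of 80 without, or 76.2% (65.4 to 85.1). Over all peak and gene pairs these shares were 74.7% with pyruvate and 75.8% without. All pairs include more flanks of unknown side, 845 of 8505 with pyruvate and 1250 of 12807 without, against 1 of 58 and 1 of 80 here. Among located pairs alone the counts with pyruvate were 47 of 57 for the 45 genes and 6351 of 7660 over all genes. Without pyruvate they were 61 of 79 and 9702 of 11557. The higher share with pyruvate is therefore not a trait of the 45 genes. The median distance from the start was 15288 bases with pyruvate and 23072 without, against 29628 with pyruvate and 32413 without over all located pairs. The bodies of the 43 genes had a median length of 31312 bases, against 47191 over all located genes, and the part of length in the distances was not tested. Whether a site is exonic or intronic was not analysed here, as no annotation of mm9 was used.

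A peak was called promoter-proximal when it lay at most 2 kb from a located start, or in a flank whose side is not known. Such a peak was present in both lists for 4 of the 45 genes, Gadd45b, Mdm2, Prkag3 and Prmt1, or 8.89% (2.48 to 21.2), against 18.7% of all genes named. It was present only with pyruvate for 4 genes, Bcl2l11, Bcl6, Gadd45g and Pdpk1, the same 8.89%, against 6.01%. It was present only without pyruvate for 8 genes, Ccnb2, Cdk2, Chuk, Gadd45a, Homer1, Ins2, Sgk2 and Tgfbr2, or 17.8% (8.002 to 32.1), against 17.7%. Each interval includes the share of all genes. By peaks, 9 of 58 with pyruvate were promoter-proximal, or 15.5% (7.35 to 27.4), and 15 of 80 without, or 18.8% (10.9 to 29.0), against 22.2% with pyruvate and 21.2% without of all peaks in gene regions. Flanks of unknown side made up 1.72% of positions with pyruvate and 1.25% without, but 9.94% with pyruvate and 9.76% without over all genes. By this definition every gene without a located start counts as promoter-proximal. That holds for 1425 of all 7262 gene IDs, but among the 45 genes only for Bcl2l11 and Ccnb2. The shares of all genes are raised by this, so a lower share among the 45 cannot be read as a trait of theirs. With peaks of at least 250 bases the genes were 1, 0 and 1 for both lists, with pyruvate alone and without pyruvate alone, so the start-site calls rest mostly on narrow peaks. At equal list length, as above, they were 2, 6 and 4.

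**Figure D4:**
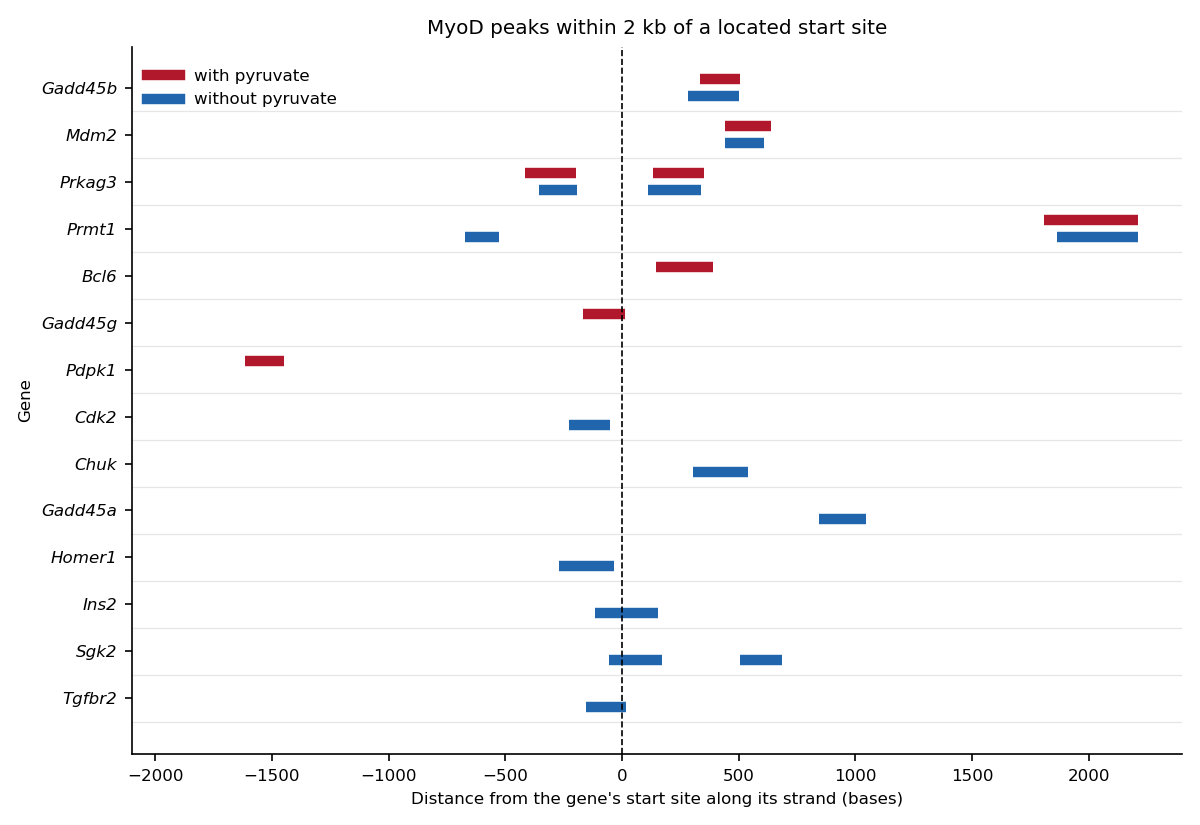
Horizontal bars are MyoD peaks within 2 kb of the located start of 14 genes, along each gene's strand in bases (dashed line, start; negative, upstream), with pyruvate in red above and without pyruvate in blue below. The genes with peaks in both lists are at the top, and Prkag3 has them on both sides of the start.

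At 4 of the genes a peak covered the listed start itself: Gadd45g with pyruvate, and Ins2, Sgk2 and Tgfbr2 without. The listed starts of Ins2 and Tgfbr2 may not be those of RefSeq, as the gene lengths differ. Ins2 has 20855 bases listed against 1071 in RefSeq, and for Tgfbr2 the difference is -3300 bases. Peaks ended just before the start in Cdk2 and Homer1, both only without pyruvate. That of Cdk2, a cell-cycle kinase gene, ran from -226 to -50, negative being upstream, and also touched Pmel or its flanks. That of Homer1, a receptor scaffold gene, ran from -270 to -34. In Mdm2, which encodes the ubiquitin ligase of p53 that also acts on FoxO, the shared peak began 441 bases past the start with pyruvate (199 bases) and 443 without (167 bases). Pdpk1 had a peak at -1617 to -1448 only with pyruvate, and Prmt1 a further one of 144 bases at -671 to -527 only without. The listed starts of Pdpk1 and Prmt1 may also not be those of RefSeq. Pdpk1 has 77245 bases listed against 81940 in RefSeq, and Prmt1 10504 against 9666.

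RefSeq promoters of build GRCm38.p6, 250 bases before to 50 after the gene start, were found by symbol for 38 of the 45 genes. They are not the mm9 peak sequences. Those below belong to Gadd45g and Cdk2, where a peak lay over most of this window, to Homer1, with a peak just before the start listed in the files, and to Prkag3, Mdm2 and Gadd45b, which had a start-site peak in both lists. In that order they are chr13:51846425-51846724 (plus strand), chr10:128705002-128705301 (minus), chr13:93303507-93303806 (plus), chr1:74748906-74749205 (minus), chr10:117710709-117711008 (minus) and chr10:80929841-80930140 (plus). The Homer1 promoter is 1 of 2 in the table. From the start shown to the gene end, RefSeq genes differ in length from those of the files by 10, 1, 167, 311, 13 and 0 bases, which limits how closely the starts coincide. Prmt1 and Tgfbr2, with differences of -838 and -3300 bases, are not shown for this reason. Capitals mark the letters CANNTG, the E-box core that bHLH factors such as MyoD read, and GTAAACA or its reverse TGTTTAC, a forkhead core.
Gadd45g: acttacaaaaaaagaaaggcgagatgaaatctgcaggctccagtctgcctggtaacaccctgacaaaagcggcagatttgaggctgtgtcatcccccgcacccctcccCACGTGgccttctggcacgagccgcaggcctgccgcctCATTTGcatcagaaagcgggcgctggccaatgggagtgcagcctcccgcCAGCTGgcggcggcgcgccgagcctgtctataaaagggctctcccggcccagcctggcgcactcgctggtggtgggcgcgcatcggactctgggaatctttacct
Cdk2: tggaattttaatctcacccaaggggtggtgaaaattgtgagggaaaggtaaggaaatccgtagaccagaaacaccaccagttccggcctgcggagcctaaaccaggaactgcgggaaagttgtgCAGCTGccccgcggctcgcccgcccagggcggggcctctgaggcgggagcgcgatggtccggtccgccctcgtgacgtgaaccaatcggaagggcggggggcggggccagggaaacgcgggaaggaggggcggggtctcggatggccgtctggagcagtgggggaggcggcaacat
Homer1: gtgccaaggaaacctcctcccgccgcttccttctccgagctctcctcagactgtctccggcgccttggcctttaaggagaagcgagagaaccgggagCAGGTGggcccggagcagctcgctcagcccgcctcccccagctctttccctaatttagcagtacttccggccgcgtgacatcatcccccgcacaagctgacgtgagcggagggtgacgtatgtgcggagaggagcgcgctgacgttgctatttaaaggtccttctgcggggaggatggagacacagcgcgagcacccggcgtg
Prkag3: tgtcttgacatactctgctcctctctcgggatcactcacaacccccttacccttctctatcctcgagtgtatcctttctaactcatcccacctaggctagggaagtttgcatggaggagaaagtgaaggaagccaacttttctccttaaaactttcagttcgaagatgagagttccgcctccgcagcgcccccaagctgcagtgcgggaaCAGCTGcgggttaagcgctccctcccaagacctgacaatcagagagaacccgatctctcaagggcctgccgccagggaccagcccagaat
Mdm2: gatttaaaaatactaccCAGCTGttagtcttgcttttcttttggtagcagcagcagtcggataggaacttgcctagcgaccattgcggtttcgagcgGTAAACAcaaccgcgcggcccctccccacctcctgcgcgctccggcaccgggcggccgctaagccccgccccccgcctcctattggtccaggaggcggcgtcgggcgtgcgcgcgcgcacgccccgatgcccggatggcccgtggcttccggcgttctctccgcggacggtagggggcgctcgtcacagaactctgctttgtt
Gadd45b: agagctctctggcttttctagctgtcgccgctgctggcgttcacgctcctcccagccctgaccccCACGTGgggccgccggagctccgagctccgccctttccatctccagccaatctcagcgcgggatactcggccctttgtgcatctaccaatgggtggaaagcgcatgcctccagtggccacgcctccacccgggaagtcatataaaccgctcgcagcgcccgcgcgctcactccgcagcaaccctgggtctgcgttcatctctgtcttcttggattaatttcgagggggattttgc

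Positions here count from the start, negative being upstream. In the Gadd45g window, E-boxes begin at -142, -104 and -55, and the peak with pyruvate ran from -166 to 13. The last of these E-boxes is CAGCTG, a form that MyoD prefers. The single Cdk2 E-box is CAGCTG as well, at -126, and the peak without pyruvate ran from -226 to -50. The Mdm2 window holds CAGCTG at -233 and a forkhead core, and the Gadd45b window holds CACGTG at -185, but the peaks of both genes lie past these windows. In Homer1 CAGGTG begins at -153 and in Prkag3 CAGCTG at -40, and neither was placed against the peaks because of the differences of 167 and 311 bases.

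Over the 55 promoters of the 38 genes, CAGCTG was in 9 or 16.4%, against 16.3% of all 32851 promoters in the table. Any CANNTG, which includes CAGCTG and reads the same on both strands, was in 65.5%, against 72.3%. GTAAACA on either strand was in 4 promoters or 7.27%, against 3.65%. These were promoters of Bcl2l11, Egf, Mdm2 and Stk11. Among the 18 promoters of the 14 matched genes with a promoter-proximal peak in either list, 7 or 38.9% held CAGCTG. The share over promoters of all genes with such a peak was not counted, so this value has no background to be read against. These promoters were of Bcl2l11, Cdk2, Gadd45g, Homer1 (the promoter not shown), Mdm2, Prkag3 and Tgfbr2. Only in Cdk2 and Gadd45g was the CAGCTG placed inside a peak. A match of letters is a description and does not show a bound site.

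Among the FoxO factors themselves, Foxo6 and Foxo4 were occupied at the same places in both lists, Foxo1 at different places and Foxo3 only without pyruvate. Foxo6, the family member best known from the brain, held the widest peak of all 45 genes with pyruvate, chr4:119949781-119950567 of mm9, 786 bases wide and 9387 bases inside the gene. Only 43 of the 11907 peaks of that list, 0.361%, were as wide or wider. Without pyruvate the same stretch held separate peaks of 421 and 208 bases. A second site 4298 bases from the start was 206 bases wide with pyruvate and 193 without.

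Foxo4, which is X-linked, held a peak of 279 bases with pyruvate and of 276 without, at chrX:98455764-98456043 and chrX:98455689-98455965, near the end of its 6346-base body. This peak also touched the genes listed as Gm20489 and Gm614. Foxo1, the factor most studied in insulin-dependent gene control, had a peak of 238 bases with pyruvate, 63437 bases from its start (chr3:52135696-52135934), and one of 289 bases without, 30352 bases from the start (chr3:52102611-52102900). Foxo3, a driver of muscle atrophy genes, had peaks of 171 and 204 bases only without pyruvate, 7197 and 38916 bases from its start, the nearest peak with pyruvate being 24383 bases away. None of the 4 factors had a peak within 2 kb of its start in either list. The same held for most of the 45 genes, 29 of which had no promoter-proximal peak. Of all genes named, 18.7% had one in both lists, 6.01% only with pyruvate and 17.7% only without. These shares are raised by genes without a located start, which all count as promoter-proximal by definition.

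Upstream of FoxO, the insulin receptor gene Insr held a wide peak at the same place in both lists. It was 501 bases wide with pyruvate (chr8:3246976-3247477) and 493 without (chr8:3247003-3247496), 32140 and 32121 bases from the start. A further Insr peak of 287 bases, 67799 bases from the start, was found only with pyruvate. Pdpk1, the kinase that activates Akt and SGK, had peaks of 268, 192 and 169 bases with pyruvate and 1 of 234 bases without, at no shared place. The remaining genes of this group were seen only without pyruvate. These were Irs2, an adaptor of the insulin receptor (218 bases), and Sgk1 and Sgk2, kinases that phosphorylate FoxO, with Sgk1 at 243 bases and Sgk2 at 228 and 179 bases. Of these 5 insulin and SGK genes, 1 had an overlapping pair, Insr, against 52.2% of all genes named. The rule left out 8 more genes of this role, all PI3K and Akt genes, of which 4 had such a pair, so the count does not describe the insulin branch as a whole. Agap2, a GTPase that enhances PI3K signalling, was outside the role lists and held 2 pairs, of 277 and 225 bases with pyruvate and of 257 and 166 bases without.

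The AMPK genes with a peak were Prkag2, Prkag3 and Stk11, and each had an overlapping pair, as did 52.2% of all genes named. The other 5 of the 8 genes on this role list were not named in the files. Prkag2 encodes a regulatory gamma subunit of AMPK, the energy-sensing kinase that phosphorylates FoxO3. It held 6 peaks in each list, all in the gene body of 237899 bases, of which 3 overlapped. The widest pair, 342 bases with pyruvate and 402 without, lay at chr5:24512658-24513000 and chr5:24512637-24513039. Of all genes named, 2.38% had at least as many peaks with pyruvate and 4.85% without. These ranks take no account of gene length, and Prkag2 had 2.52 peaks per 100 kb of body in each list. Among the unshared sites, one of 245 bases without pyruvate lay 358 bases from a peak with pyruvate, and the one farthest from any was 47748 bases away. Stk11, which encodes the AMPK-activating kinase Lkb1, had a peak of 279 bases with pyruvate and 156 without at a common site 4395 bases from the start, and another of 169 bases with pyruvate alone.

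Prkag3, which encodes the gamma subunit found mainly in skeletal muscle, was the only one of the 45 genes with peaks on both sides of its start in both lists. The peak upstream was 219 bases wide with pyruvate (chr1:74795992-74796211) and 161 without (chr1:74795988-74796149), ending 197 and 193 bases before the start. The peak inside the gene was 219 bases wide with pyruvate (chr1:74795444-74795663) and 227 without (chr1:74795457-74795684), beginning 132 and 111 bases after the start. The catalytic subunits Prkaa1 and Prkaa2 and the subunits Prkab1, Prkab2 and Prkag1 were assigned no peak in the lists analysed here.

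In the TGF-beta branch, Smad3, the signal transducer that partners FoxO at some targets, held the most peaks. There were 9 peaks with pyruvate and 11 without over a body of 111228 bases, or 8.09 per 100 kb with pyruvate and 9.89 without, and 7 sites were shared. Of all genes named, 0.525% had at least as many peaks with pyruvate and 0.746% without. The widest Smad3 site was 620 bases with pyruvate (chr9:63550267-63550887) and 592 without (chr9:63550246-63550838), 54914 and 54963 bases from the start. At other shared sites the widths differed much: 440 bases with pyruvate and 197 without at 31036 bases from the start, but 182 with pyruvate and 495 without, at 20123 and 20057 bases from it. No Smad3 peak lay within 10 kb of the start, the nearest being 10088 bases away.

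The receptor gene Tgfbr1 shared a site of 218 bases with pyruvate and 186 without, 51421 bases from its start. The ligand gene Tgfb2 had a peak of 201 bases with pyruvate and 1 of 321 bases without, in different places. The receptor gene Tgfbr2 was occupied only without pyruvate, with a peak of 212 bases in the gene and one of 173 bases across the listed start. This start may not be the RefSeq one. The nearest peak with pyruvate was 102144 bases away.

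**Figure D5:**
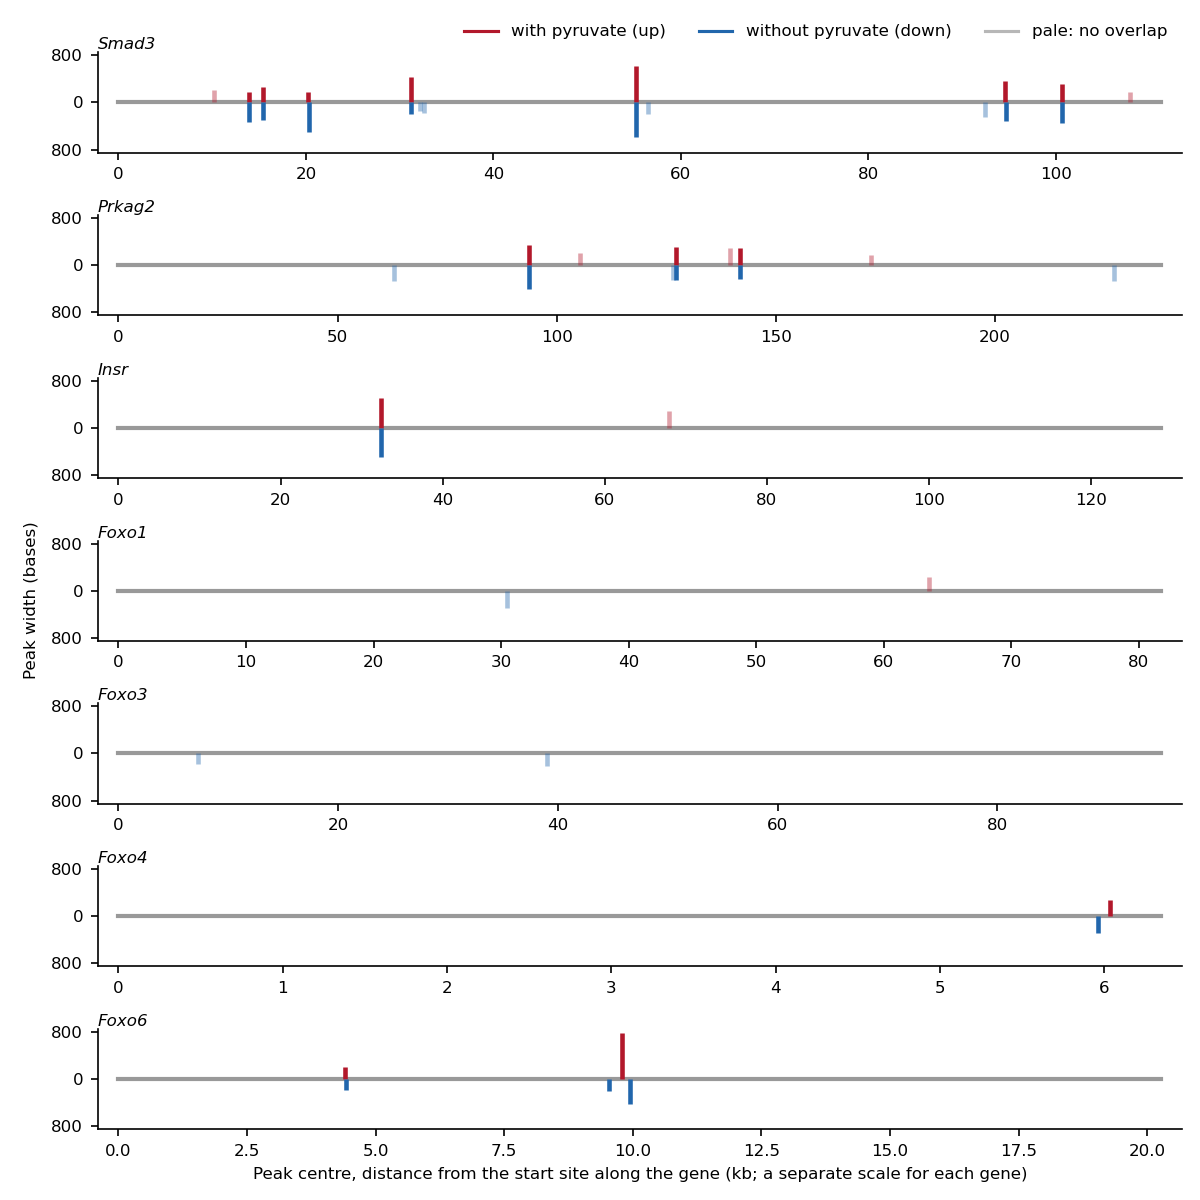
Each row is a gene drawn from its start site (0) to its end on its own scale in kb; bars up are peaks with pyruvate and bars down peaks without, their height being peak width in bases and pale bars those with no overlap. The 7 shared Smad3 sites, the 3 shared Prkag2 sites and the Insr pair stand opposite each other, while the Foxo1 peaks do not.

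Of the 8 genes of the growth factor and MAP kinase branch, 6 had an overlapping pair, among them Araf, Egf, Egfr, Map2k1 and Nlk, against 52.2% of all genes named. Egfr, the EGF receptor, shared a site of 397 bases with pyruvate and 363 without, and another of 215 bases with pyruvate and 232 without. Its further peaks of 153 and 155 bases were found only without pyruvate. Araf, which encodes a Raf kinase, shared both its sites, of 212 and 277 bases with pyruvate and 372 and 250 without. The site in Egf, the growth factor gene, was 211 bases with pyruvate and 252 without, and a peak of 305 bases was found only without. The pair in Map2k1, which encodes MEK1, was 352 bases with pyruvate and 281 without. Nlk, a kinase that phosphorylates FoxO1, had its site at the far end of the gene, 128600 bases from the start with pyruvate (285 bases) and 128568 without (368 bases). Map2k2 (MEK2) had 1 peak of 287 bases only with pyruvate, and Mapk9 (JNK2) 1 of 186 bases only without. None of the 8 genes had a peak within 2 kb of its start, and 29 of the 45 genes had no promoter-proximal peak in either list. Of all genes named, 18.7% had one in both lists, 6.01% only with pyruvate and 17.7% only without. Genes without a located start, which all count by definition, raise these shares.

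Of the 6 enzymes that modify FoxO, 5 had an overlapping pair, Csnk1e, Mdm2, Prmt1, Skp2 and Usp7, against 52.2% of all genes named. These role counts are small and each rests on genes that already had a peak. The F-box protein gene Skp2, whose product marks FoxO1 for degradation, shared both its sites. The one in the body was 370 bases with pyruvate and 341 without. The one just past the gene's end was 236 bases with pyruvate and 221 without, and also touched 1110020G09Rik. Prmt1, which encodes an arginine methyltransferase, had a pair of 404 bases with pyruvate and 350 without, starting 1808 and 1863 bases from the start. The site in Usp7, a deubiquitinase, was 190 bases with pyruvate and 361 without, and that in Csnk1e, casein kinase 1 epsilon, 199 bases with pyruvate and 279 without. Chuk, which encodes the kinase IKK-alpha, had 1 peak of 237 bases only without pyruvate, 303 bases from its start, which also touched Cwf19l1 or its flanks. The scaffold gene Homer1 shared a site of 276 bases with pyruvate and 332 without.

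Among cell-cycle and DNA repair genes, each member of the growth arrest family Gadd45 had a peak in or beside the gene, at unlike places. Gadd45b shared a peak 335 bases past its start with pyruvate (173 bases) and 284 bases past it without (217 bases), at chr10:80393171-80393344 and chr10:80393120-80393337. Gadd45g shared a peak just downstream of its end, 470 bases wide with pyruvate (chr13:51944063-51944533) and 282 without (chr13:51944098-51944380). It had a second peak, across its start, only with pyruvate (chr13:51941881-51942060, 179 bases). Gadd45a had peaks only without pyruvate, of 200 bases inside the gene and of 172 bases downstream. Plk1, a mitotic kinase, shared a site of 304 bases with pyruvate and 381 without, and Cdk2 shared one inside the gene, of 244 bases with pyruvate and 218 without. Plk3 and Ccnb2 (cyclin B2) had 1 peak each only without pyruvate, of 178 and 201 bases, the Ccnb2 peak also touching Rnf111.

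Of the stress and apoptosis targets, Bcl6, a transcriptional repressor, shared a site in the gene of 246 bases with pyruvate and 264 without. A further Bcl6 peak, 242 bases wide and 148 bases past the start, was found only with pyruvate (chr16:23988548-23988790), 4905 bases from the nearest peak without. Bcl2l11, which encodes the pro-apoptotic protein Bim, had 1 peak of 169 bases only with pyruvate, in a flank whose side is unknown, and it also touched Acoxl or its flanks. Cat, which encodes catalase, had peaks of 203 and 210 bases only without pyruvate. Tnfsf10, the death ligand TRAIL, had a peak of 194 bases with pyruvate inside the gene and 1 of 189 bases without past its end. Ins2, an insulin gene, had 1 peak of 271 bases without pyruvate across the start of the region the files give for it. That region is 20855 bases long, whereas the RefSeq gene spans 1071 bases, so this start may not be the RefSeq one.

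Beyond the FoxO pathway, the KEGG text places 16 of the 45 genes in PI3K-Akt signalling, 14 in MAPK and 12 in insulin signalling. It places 10 in the cell cycle and 9 in AMPK signalling. In that order these are 35.6%, 31.1%, 26.7%, 22.2% and 20%, against 2.225%, 1.7%, 0.94%, 0.58% and 0.774% of all genes named. Such an excess follows from choosing genes by a pathway that shares members with these. The rule also removed PI3K and Akt genes. Chromosomes 12, 14 and 18 carried 0 of the 45 genes. Chromosome 10, named here because it had the most, carried 9 of the 45, or 20% against 5.25% of all genes named. Among them were Agap2, Cdk2, Foxo3, Gadd45b, Map2k2, Mdm2, Sgk1 and Stk11. Of these 9, Agap2, Cdk2, Gadd45b, Mdm2 and Stk11 had an overlapping pair, as did 52.2% of all genes named. The difference in share on chromosome 10 was not tested, and it concerns where the genes lie rather than how they are bound.

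Genes of the pathway beyond the 45 were taken from role lists written from general knowledge. Of 125 genes on 10 such lists, 43 were among the 45, 14 were named but left out by the rule, 1 (Rassf5) lacked the pathway text, and 67 were assigned no peak in the lists analysed here. Those without a peak include the deacetylase gene Sirt1, the autophagy genes Gabarap, Gabarapl1 and Gabarapl2, and Sod2. A further list of 28 genes of muscle atrophy and stress outside the rule had 17 with a peak: 9 in both lists, 2 only with pyruvate and 6 only without. These shares of the 17 are near those of all genes named, 55.1%, 9.95% and 35%. The share of all mouse genes that have a peak was not counted. The 17 of 28 and the 67 of 125 therefore have no background to be read against. Within the list of 28 genes Fbxo32, which encodes the atrophy ligase atrogin-1, had 3 peaks with pyruvate and 2 without. Trim63, which encodes the ligase MuRF1, was assigned none. Promoter-proximal peaks were in both lists at Txnip, Ddit4, Trp53inp1, Tfeb and Slc2a4, only with pyruvate at Eif4ebp1 and only without at 5 genes, among them Pdk4, Ulk1 and Becn1. Of the 17 genes these are 5, 1 and 5, where the shares of all genes named were 18.7%, 6.01% and 17.7%, and the difference was not tested. Those shares include genes without a located start, which all count as promoter-proximal by definition.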

How the data were processed

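MyoD ChIP libraries of myotubes with and without pyruvate were each represented by 1 peak list; the 2 inputs were not analysed here. The submitters' processing notes name mm9, MACS2 2.1.1, Bowtie2 2.1.0 and bcl2fastq 2.19. No label or header gives the calling threshold, the use of the inputs or the annotation source. The deposited lists pair each peak with every gene body or 2000-base flank it touches, per the file headers and values. Rows (13076 with pyruvate, 20902 without) were reduced to distinct peaks, and coordinates are printed as deposited, in mm9.

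Genes were pooled by symbol (7262 gene IDs, 7235 genes). Starts came from the listed body and strand (5793 IDs) or from flanks on both sides of a gene (44 IDs, Gadd45g among them), and 1425 IDs had neither. Distance is from the start to the nearest edge of the peak. Peaks overlap when they share at least 1 base. Shares carry 95% exact (Clopper-Pearson) intervals. With 1 library per condition no test was run. Alternatives tried were stricter overlap, a width minimum of 250 bases, other start-site windows, located starts alone, an equal list length, all pathway genes and peaks touching 1 gene. The overlap and position code was checked on simulated peaks.

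The members and gene lists were chosen with earlier results of these data known. Named were all genes with a promoter-proximal peak, the 4 FoxO factors, the 5 genes with most peaks, the 5 widest peaks and the 5 widest peaks without overlap per list, and up to 4 genes per role. Other genes named, and the Cdk2 and Homer1 promoters, were chosen after their values were seen. All 45 symbols matched RefSeq. Some genes enter the counts but are not reported here by name. Tools were scipy 1.17.1, pandas 2.3.3, numpy 2.4.6 and matplotlib 3.10.9 under Python 3.11.15.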

Additional observations from a re-analysis of the deposited data

How the results depend on the processing

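No paired analysis was possible because each condition has 1 library, and leaving out a replicate could not be run for the same reason. Of 48 alternatives, 33 stayed within the interval, the spread or 1.5 times the value and 15 moved. These limits are wide, so the 33 do not show that the values are stable. For example, the median width with pyruvate went from 240 to 308.5 bases with peaks of at least 250 bases. The peaks with pyruvate went from 58 to 82 with all pathway genes. Both were counted among the 33. By construction, peaks of at least 250 bases left fewer peaks, 26 with pyruvate and 33 without. Genes with any peak were then 15 in both lists and 8 only without pyruvate, and promoter-proximal genes 1 in both, 0 only with and 1 only without. When the list without pyruvate was reduced to its widest peaks, equal in number to the other list, genes with any peak were 7 only with pyruvate and 4 only without, and promoter-proximal genes 2 in both and 4 only without, since shared peaks are dropped too. A window of 1 kb around located starts gave 2 promoter-proximal genes only with pyruvate. A window of 10 kb gave 14 in both lists, and 37.9% of peaks with pyruvate and 38.8% without, as it takes in more of each gene. Overlap by 50% of both peaks or by centres within 100 bases kept the shared share at 65.5% to 67.2% with pyruvate and 47.5% to 48.8% without. Depth is unknown and limits any statement on absence.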
